A study of Mus musculus with 4 samples.

Results

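The acyl-CoA thioesterases of the Acot family were followed through 4 mouse liver RNA-seq libraries. Of the 9 genes Acot1, Acot2, Acot3, Acot4, Acot7, Acot8, Acot9, Acot11 and Acot13, 8 had a row among the 15500 genes of the expression table, and Acot3 was not analysed here. Wild-type male Kunming mice, an outbred stock, were 5 weeks old at purchase and were acclimated for 1 week. The study then fed 6 mice per group for 28 days and collected the livers at zeitgeber time 8. The Vehicle group ate chow with 1.5% (w/w) linoleic acid, and the CLA group ate chow with 1.5% conjugated linoleic acid, a mixture of isomers of the same fatty acid. The GW6471 group ate the linoleic acid diet and was injected daily with 20 mg/kg of GW6471, an antagonist of the nuclear receptor PPARα. The CLA+GW6471 group received both the CLA diet and the injections. The sample labels describe all 4 groups, whereas the methods of the study describe the Vehicle and CLA groups for this experiment. Each group is represented by 1 library, and the sources used here do not state whether it pools the RNA of several mice. The differences therefore have no replicate check, no test between conditions was run, and each value describes these libraries. The genes were chosen by name, but the family was picked with its FPKM in these 4 libraries known, so the values below are a description.

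Acyl-CoA thioesterases cut fatty acyl-CoA into free fatty acid and coenzyme A, the reverse of the step by which acyl-CoA synthetases activate a fatty acid. They set how much acyl-CoA and free coenzyme A a compartment holds, and they are found in the cytosol, the mitochondria and the peroxisomes. Unrelated protein folds carry the activity. The type I enzymes, here Acot1, Acot2 and Acot4, have an α/β hydrolase fold, and the type II enzymes, here Acot7, Acot8, Acot9, Acot11 and Acot13, have a hotdog fold. In liver, several type I genes are textbook targets of PPARα and are induced by fasting and by fibrate drugs.

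The values are FPKM, in which the fragments of a transcript are divided by its length and by the mapped fragments of the library, so levels of different genes can be set side by side. The steps between low FPKM of short genes put the depth at about 18846775 reads in the shallowest and 19291847 reads in the deepest library. Tissue markers were mixed. Of 17 hepatocyte markers 13 were listed, and 7 of these had a mean FPKM under 1. Alb was present at 620 to 1322 FPKM, but Ttr, Cps1 and Cyp2e1 did not exceed 0.1 FPKM in any library. The sum of the hepatocyte markers was 1022 FPKM in Vehicle and 1891 in CLA, against 1545 in GW6471 and 951 in CLA+GW6471. Most of this sum was Alb, Trf and Fgb, and not all markers moved with it: Hnf4a had 54.53 FPKM in Vehicle and 47.31 in CLA, and Tat had 0.89 and 0.46. Sprr1a, a marker of squamous epithelium, had 19046 FPKM in Vehicle and 15810 in CLA, against 18795 in GW6471 and 26116 in CLA+GW6471, while 3 of the 5 markers of that list had a mean FPKM under 1. The remaining marker, Krt5, went another way, with 2.99, 4.29, 2.79 and 2.94 FPKM in the same order, highest in CLA. Sox9, a cholangiocyte marker, had 54.74, 34.72, 48.67 and 57.05 FPKM in the same order. Sprr1a and Sox9 were lowest in CLA and highest in CLA+GW6471, as were Acot2, Acot4 and Acot8 below. The other 3 of the 4 cholangiocyte markers did not share this order, and the sum of that list ranged from 66.87 FPKM in CLA to 85.58 in Vehicle. Of the adipocyte markers, Cidec had 5.19, 1.69, 2.32 and 4.85 FPKM, also lowest in CLA, and Adipoq did not exceed 0.08. Of the stellate cell and fibroblast markers, Dcn had 1148 to 1506 FPKM, highest in CLA, and the other 6 listed had a mean FPKM under 1. All 4 listed endothelial markers had a mean FPKM under 1, with a sum of 0.51 to 0.94 FPKM. Of the 3 listed blood markers, 2 had a mean FPKM under 1, and Ptprc did not exceed 0.01. Of the macrophage or Kupffer cell markers, Cd68 had 23.43, 35.64, 24.87 and 24.37 FPKM, highest in CLA. The other 4 listed of these had a mean FPKM under 1. The part of these differences in the Acot values was not tested, and in whole tissue fewer cells of a type and less RNA per cell cannot be told apart.

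Acot1, Acot2 and Acot4 lie in tandem on the plus strand of chromosome 12. In the assembly mm9, which the study used, 6 Acot genes occupy 123489 bp between positions 85328811 and 85452299, in the order Acot2, Acot1, Acot4, Acot3, Acot5, Acot6. Acot2 spans 85328811 to 85334823, Acot1 spans 85350448 to 85358621 and Acot4 spans 85379329 to 85385673, each with 3 exons. Acot2 ends 15624 bp before Acot1 begins. The type II genes are scattered. Acot7 (151552243 to 151645964, plus strand, 9 exons) and Acot11 (106417160 to 106477603, minus strand, 16 exons) are both on chromosome 4. Acot8 is on chromosome 2 (164618268 to 164630382, minus strand, 6 exons), Acot9 on chromosome X (151696986 to 151732197, plus strand, 15 exons) and Acot13 on chromosome 13 (24909817 to 24923386, minus strand, 3 exons).

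Acot1, a cytosolic enzyme, and Acot2, its mitochondrial counterpart, are close copies of each other. In an alignment of their whole coding sequences, 1239 bases were paired and 56 of these differed, an identity of 95.5%. The other pairs of the cluster were less alike, with 74.8% between Acot1 and Acot4 and 75.4% between Acot2 and Acot4. The coding start, which in Acot2 includes the mitochondrial leader, separates the pair most clearly. In exon 1, a separate local alignment, which left out the first 6 coding bases of Acot1, found no counterpart in Acot1 for the first 129 coding bases of Acot2, at chr12:85328852-85328980 (plus strand, mm9), shown here because reads from it can only belong to Acot2 within the pair:
Acot2 coding start: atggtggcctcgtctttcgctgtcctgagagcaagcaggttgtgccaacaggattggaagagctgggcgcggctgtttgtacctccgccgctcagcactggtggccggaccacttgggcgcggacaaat
Within the alignment of the whole coding sequences, the 60 bases with the most differences lie in exon 3, at chr12:85357892-85357951 in Acot1 and at chr12:85333614-85333673 in Acot2. Capitals mark the 13 positions that differ:
Acot1: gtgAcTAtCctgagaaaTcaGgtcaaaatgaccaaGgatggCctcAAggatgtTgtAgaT
Acot2: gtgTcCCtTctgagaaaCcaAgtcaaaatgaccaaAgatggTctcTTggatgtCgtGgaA
Shortly after it, both genes share an identical run of 273 bases, the longest of the alignment. A read from this run cannot be placed by its sequence. Its first 60 bases lie at chr12:85357956-85358015 in Acot1 and at chr12:85333678-85333737 in Acot2:
Acot1 and Acot2: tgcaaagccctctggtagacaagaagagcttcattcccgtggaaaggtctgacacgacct

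The share of each transcript that a read could not assign was counted as windows of the longest coding transcript that occur in a coding transcript of another gene. With windows of 50 nt, 47.1% of the 1515 windows of Acot1 were shared, most often with Acot2 (527 windows), and so were 27.6% of the 2147 windows of Acot2. With windows of 100 nt the shares were 32.5% and 17.1%. Acot4 had 12.1% of its 50-nt windows in common with other genes. Acot9 shared 20.2% of its windows with Acot10, a single-exon gene on chromosome 15 whose coding sequence was 97.2% identical. No 50-nt window of Acot7, Acot8, Acot11 or Acot13 was shared. Each gene of the pair therefore has sequence of its own, but the sources used here give neither the read length nor how reads from shared sequence were divided. The levels of Acot1, Acot2, Acot4 and Acot9 are uncertain to that extent.

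**Figure D1:**
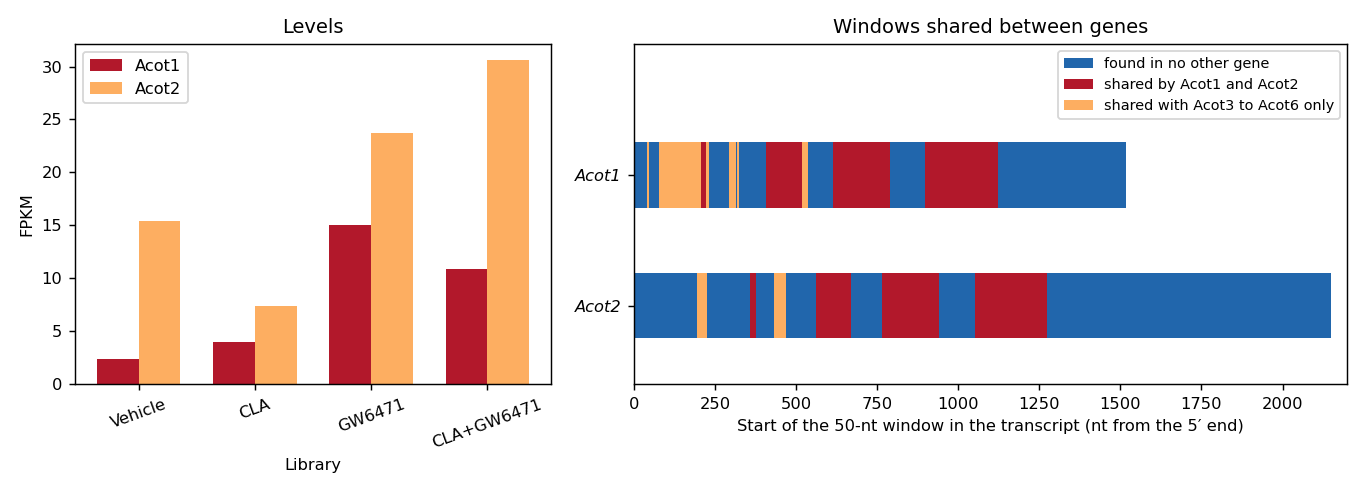
Left, level of Acot1 and Acot2 (FPKM, bars from 0) in each of the 4 libraries, with 1 library per bar pair and no error bar. Right, 50-nt windows along both transcripts, coloured by whether the window occurs in no other gene, in both Acot1 and Acot2, or only in Acot3 to Acot6; 52.9% of the windows of Acot1 and 72.4% of those of Acot2 were their own.

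PPARα binds DR1 elements, direct repeats of the letters AGGTCA with 1 free base between the copies. The 250 bases before the RefSeq start of Acot1 and Acot2 were searched for this element on both strands, because both genes were higher in the libraries with GW6471, and positions were set on mm9 by an exact match. Capitals mark the closest match, which differed from the 12 fixed letters at 4 positions in Acot1 (chr12:85350202-85350451) and at 3 in Acot2 (chr12:85328561-85328810):
Acot1: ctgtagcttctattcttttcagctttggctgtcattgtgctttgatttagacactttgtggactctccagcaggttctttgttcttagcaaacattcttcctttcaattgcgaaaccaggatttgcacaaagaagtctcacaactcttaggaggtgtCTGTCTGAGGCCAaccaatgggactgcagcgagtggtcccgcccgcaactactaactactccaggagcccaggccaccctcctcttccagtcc
Acot2: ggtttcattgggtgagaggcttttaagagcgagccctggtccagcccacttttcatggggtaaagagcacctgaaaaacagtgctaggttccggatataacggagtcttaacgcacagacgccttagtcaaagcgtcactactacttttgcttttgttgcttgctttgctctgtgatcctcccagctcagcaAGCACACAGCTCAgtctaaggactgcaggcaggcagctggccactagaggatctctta
A match at least this close was held by 74.4% and 21.3% of the 32536 distinct promoter windows, respectively. Acot4 had a closer one, with 2 letters differing, as in 3.25% of windows. The half-site AGGTCA alone was held by the window of 1 of the 8 named genes with a promoter entry, Acot4, against 14.04% of all windows. These 8 include Acot3 and lack Acot13, unlike the 8 with expression values. These letters say nothing of binding, and elements farther away were not searched.

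Acot1 varied most in the family. It had 2.34 FPKM in Vehicle and 4.01 in CLA, against 15.04 in GW6471 and 10.86 in CLA+GW6471, which corresponds to about 69, 118, 449 and 328 reads. Both libraries with GW6471 were above both libraries without it. GW6471 stood 6.43-fold above Vehicle, a log2 ratio of FPKM + 0.1 of 2.63 (95% counting interval 2.32 to 3.07), and this was number 3 from the top of the 10355 genes averaging 1 FPKM or more. Counting intervals here are exact Clopper-Pearson intervals from the estimated reads and cover counting error only, not the difference between animals. CLA+GW6471 was 4.64-fold above Vehicle (log2 ratio 2.17, 1.84 to 2.61, number 6) and 2.71-fold above CLA (1.42, 1.14 to 1.76). The CLA library lay 1.71-fold above Vehicle, with a log2 ratio of 0.75 (0.33 to 1.22). CLA+GW6471 was lower than GW6471, with a log2 ratio of -0.47 (-0.68 to -0.26).

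Acot2 had 15.44 FPKM in Vehicle and 7.41 in CLA, against 23.75 in GW6471 and 30.6 in CLA+GW6471, about 639, 307, 996 and 1296 reads. Its libraries with GW6471 were also the higher ones, but the CLA library was the lowest, unlike for Acot1. The log2 ratio of CLA to Vehicle was -1.05 (-1.26 to -0.86), number 60 from the bottom, so that Vehicle was 2.08-fold above CLA. GW6471 was 1.54-fold above Vehicle (log2 ratio 0.62, 0.48 to 0.77), and CLA+GW6471 was 1.98-fold above Vehicle (0.98, 0.85 to 1.13). CLA+GW6471 stood 4.13-fold above CLA, a log2 ratio of 2.03 (1.87 to 2.23), number 7 from the top.

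The balance of the pair differed among the libraries. Acot2 exceeded Acot1 in all 4 libraries, by 6.60-fold in Vehicle and 1.85-fold in CLA, against 1.58-fold in GW6471 and 2.82-fold in CLA+GW6471. Acot1 thus made up 13.2% of the summed level of the pair in Vehicle and 35.1%, 38.8% and 26.2% in the other libraries in that order. The sum itself depends less on how shared reads were divided. It was 17.78 FPKM in Vehicle and 11.42 in CLA, against 38.79 in GW6471 and 41.46 in CLA+GW6471. On this sum the CLA library lay below Vehicle (log2 ratio -0.63), GW6471 was 2.18-fold and CLA+GW6471 2.33-fold above Vehicle, and CLA+GW6471 and GW6471 were close (log2 ratio 0.10).

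**Figure D2:**
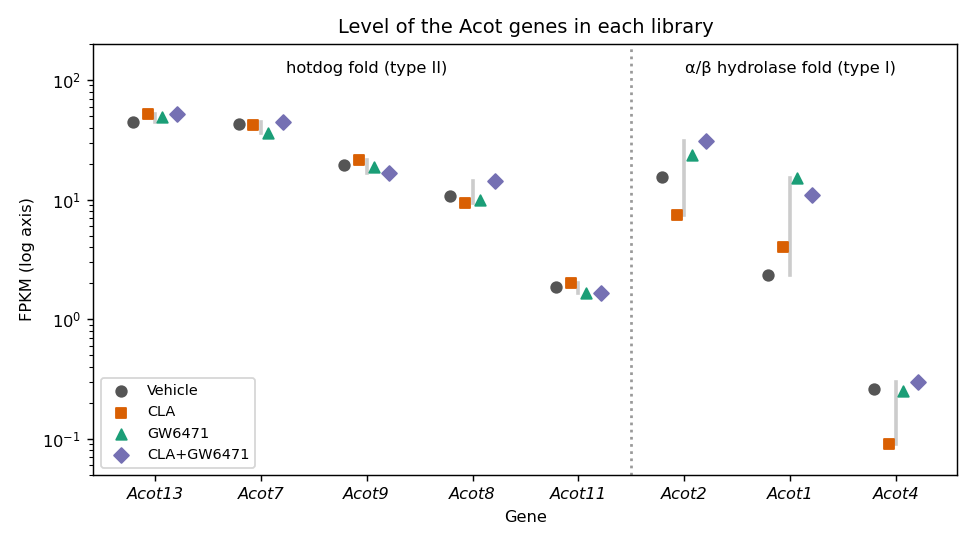
Level of each Acot gene (FPKM, log axis) in the 4 libraries, with 1 point per library and a grey bar from the lowest to the highest. The hotdog-fold genes keep their levels within 1.51-fold, whereas Acot1, Acot2 and Acot4 range over 6.43-fold, 4.13-fold and 3.33-fold.

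The peroxisomal enzymes were read by Acot4 and Acot8. Acot4, which acts on short dicarboxylic acyl-CoA such as succinyl-CoA, was at the edge of detection, with 0.26 FPKM in Vehicle and 0.09 in CLA, against 0.25 in GW6471 and 0.3 in CLA+GW6471, or about 11, 4, 11 and 13 reads. The CLA library was again the lowest. Its log2 ratio to Vehicle was -0.92, with an interval of -3.57 to 0.29 on the ratio without the added 0.1, so a difference was not detectable at this depth. Acot8, an enzyme of broad chain-length range, had 10.65 FPKM in Vehicle and 9.45 in CLA, against 9.93 in GW6471 and 14.3 in CLA+GW6471. The CLA+GW6471 library was the highest. It lay above Vehicle with a log2 ratio of 0.42 (0.18 to 0.68), above CLA with 0.59 (0.34 to 0.86) and above GW6471 with 0.52 (0.28 to 0.78). Only the ratio to CLA passed 1.5-fold. In the same comparisons, the counting intervals of 32.5%, 68.9% and 59.4% of 9762 genes also left out equal levels. Exons of Acot8 overlap those of Snx21 on the opposite strand, which had 21.8, 31.39, 24.59 and 21.41 FPKM in the same order of libraries. Exons of Acot4 likewise overlap the lincRNA 4732463B04Rik and those of Acot11 overlap Fam151a, both on the opposite strand and neither analysed here. Whether reads were counted by strand is not given, and without strand the reads of overlapping genes cannot be told apart.

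**Figure D3:**
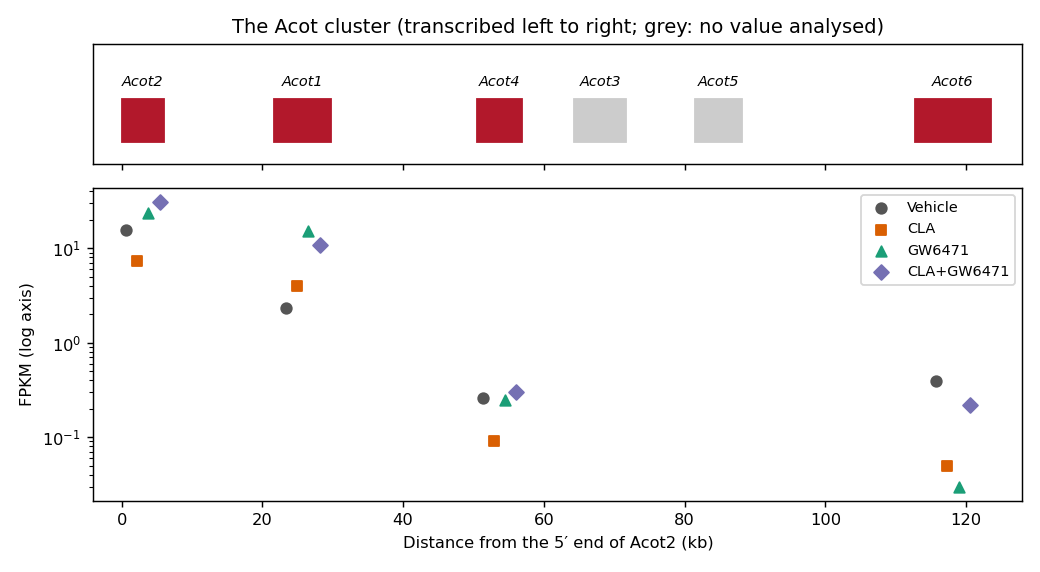
Map of the Acot cluster as distance in kb from the 5′ end of Acot2, with the level (FPKM, log axis) of each gene in the 4 libraries under it. Acot2 and Acot1 reach 30.6 and 15.04 FPKM, while Acot4 and the outermost gene, Acot6, stay at or below 0.39 FPKM.

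The other type II genes differed little between libraries. Acot13, also called Them2, a small enzyme associated with mitochondria, was the most abundant member in every library, with 44.2 FPKM in Vehicle and 51.78 in CLA, against 48.85 in GW6471 and 51.68 in CLA+GW6471. Acot7, a cytosolic enzyme best known from brain, came second in every library, with 42.82, 42.03, 36.03 and 44.59 FPKM in the same order. Its lowest value was in GW6471, at a log2 ratio to Vehicle of -0.25 (-0.37 to -0.13). Acot9, a mitochondrial enzyme, had 19.44, 21.3, 18.9 and 16.82 FPKM, lowest in CLA+GW6471, with a log2 ratio of -0.34 (-0.50 to -0.18) to CLA. Acot11, also called Them1 and known from brown fat, had 1.86, 1.99, 1.64 and 1.66 FPKM, and the counting interval included equal levels in all of its comparisons. The levels of the 5 type II genes summed to 118.97 FPKM in Vehicle and 126.55 in CLA, against 115.35 in GW6471 and 129.05 in CLA+GW6471. Their log2 ratios lay between -0.34 and 0.59 over all 5 comparisons.

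By mean level, the order was Acot13 (49.1 FPKM), Acot7 (41.4), Acot2 (19.3), Acot9 (19.1), Acot8 (11.1), Acot1 (8.06), Acot11 (1.79) and Acot4 (0.23). With no replicates, neighbours could be compared by their ranges over the 4 libraries alone. The ranges overlapped between Acot13 and Acot7, between Acot2 and Acot9, and between Acot8 and Acot1. They did not overlap between Acot7 and Acot2, between Acot9 and Acot8, or between Acot1, Acot11 and Acot4. Acot1 moved between ranks: it was number 6 of the family in Vehicle, CLA and CLA+GW6471 and number 5 in GW6471, and Acot2 went from number 5 in CLA to number 3 in both libraries with GW6471. All members together had 137.01 FPKM in Vehicle and 138.06 in CLA, against 154.39 in GW6471 and 170.81 in CLA+GW6471. Acot1 and Acot2 contributed 12.98%, 8.27%, 25.1% and 24.3% of these sums.

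Counted over the family, a gene was called at 1.5-fold on the log2 scale of FPKM + 0.1. In CLA against Vehicle 1 of 8 members was higher, Acot1, and 2 were lower, Acot2 and Acot4. Over all 15500 genes, 8.86% were higher and 6.65% lower by this rule. The median log2 ratio of the family was 0.03, against 0 over all genes. In GW6471 against Vehicle 2 members were higher and 0 lower (5.2% and 4.83% of all genes), with a median of -0.04. In CLA+GW6471 against Vehicle 2 were higher and 0 lower (3.21% and 3.25%), with a median of 0.19. In CLA+GW6471 against CLA 4 were higher, Acot1, Acot2, Acot4 and Acot8, and 0 lower (8.15% and 10.5%), with a median of 0.34, which was 0.09 over the members averaging 1 FPKM or more and over the family with Acot1 and Acot2 summed. In CLA+GW6471 against GW6471 0 members were called in either direction (5.42% and 5.74%), with a median of 0.14. All called members except Acot8 were type I genes, and the medians over all genes were 0 in each comparison. At 2-fold, 0 members were higher and 1 lower in CLA against Vehicle (2.59% and 1.72% of all genes), 1 and 0 in GW6471 against Vehicle (1.34% and 1.41%), and 1 and 0 in CLA+GW6471 against Vehicle (0.955% and 1.04%). Also at 2-fold, 3 were higher and 0 lower in CLA+GW6471 against CLA (2.32% and 3.55%) and 0 in either direction against GW6471 (1.49% and 1.5%). Acot4 drops out when the counts are limited to an average of 1 FPKM. At 1.5-fold the 7 remaining members then had 1 higher and 1 lower in CLA against Vehicle (7.3% and 4.95% of the 10355 genes), 2 and 0 in GW6471 against Vehicle (3.28% and 2.1%), and 2 and 0 in CLA+GW6471 against Vehicle (0.512% and 0.628%). They had 3 higher and 0 lower in CLA+GW6471 against CLA (6.84% and 9.15%) and 0 in either direction against GW6471 (2.81% and 3.88%). Several of these comparisons share a library, so their counts are not independent. 4 calls depended on the added constant: with 1 in place of 0.1, Acot1 in CLA against Vehicle went to 0.58, Acot4 to -0.21 there and to 0.25 in CLA+GW6471 against CLA, and Acot8 to 0.55 in CLA+GW6471 against CLA, and none of these was called.

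**Figure D4:**
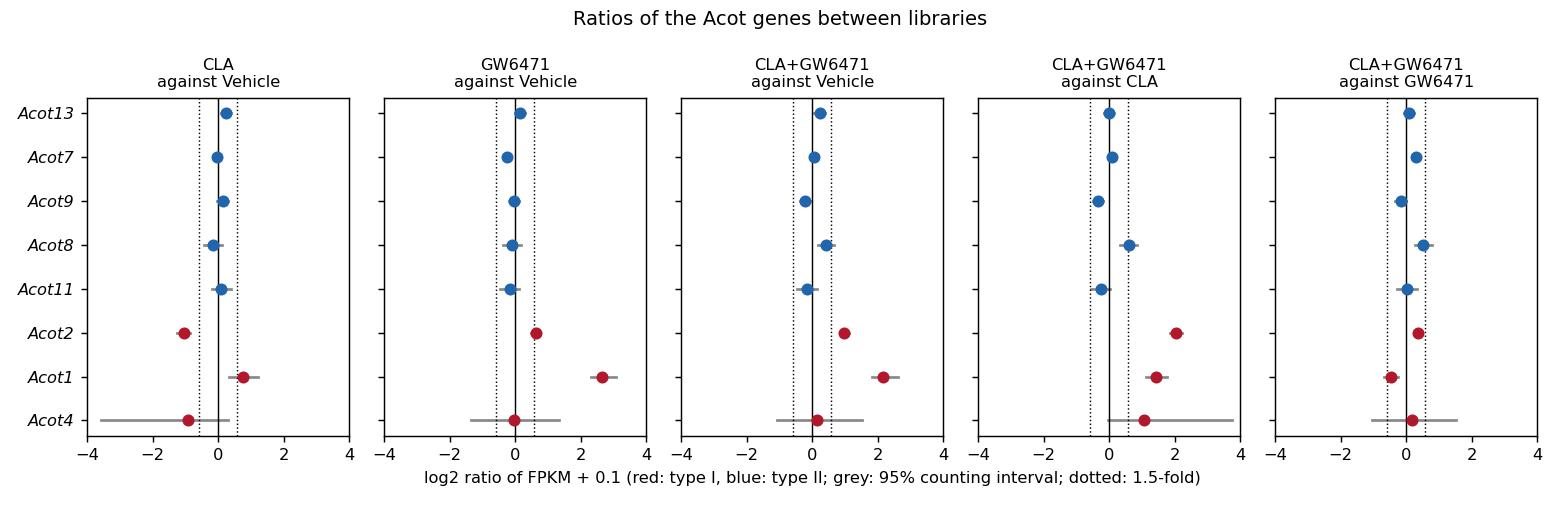
log2 ratio of FPKM + 0.1 for each Acot gene in the 5 comparisons, with the 95% counting interval as a grey bar (from reads, without the added 0.1), type I genes in red, type II genes in blue and dotted lines at 1.5-fold. The red points of Acot1 and Acot2 lie outside the dotted lines in the first 4 comparisons, and Acot8 crosses a line only in CLA+GW6471 against CLA.

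The difference between CLA and linoleic acid diet went the opposite way with and without GW6471 for 6 of the 8 members. This was close to the share over genes in general, since 60.2% of all listed genes and 73% of those averaging 1 FPKM or more also had opposite signs. For Acot1 the log2 ratio was 0.75 without and -0.47 with GW6471, for Acot2 it was -1.05 and 0.36, and for Acot4 -0.92 and 0.19. For Acot8 it was -0.17 and 0.52, for Acot7 -0.03 and 0.31, and for Acot9 0.13 and -0.17. Without GW6471, the counting interval of the ratio included equal levels for Acot4 and for these 3 type II genes. The difference between libraries with and without GW6471 had opposite signs on the diets for 4 of the 8 members, against 58.9% of all listed genes and 71% of those averaging 1 FPKM or more. Of the other 4, Acot1 (2.63 on linoleic acid and 1.42 on CLA) and Acot2 (0.62 and 2.03) were higher with GW6471 on both diets, and Acot9 (-0.04 and -0.34) and Acot11 (-0.17 and -0.25) were lower. With 1 library per condition, none of these differences of differences was tested.

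The genes whose pattern over the 4 libraries was nearest to the varying members were searched for in the 10348 genes outside the family that averaged 1 FPKM or more, by the Euclidean distance of log2(FPKM + 0.1) centred on its mean. The nearest to Acot1 was Cpt1a, the mitochondrial carnitine palmitoyltransferase of fatty acid import, at a distance of 0.44. It had 11.34 FPKM in Vehicle and 15.98 in CLA, against 46.04 in GW6471 and 43.13 in CLA+GW6471. Klf11, a transcription factor, followed at 0.81 and Fam71f2 at 0.82. Nearest to Acot2 were Jun, an AP-1 subunit, at 0.56, and Hilpda and Angptl4, both inhibitors of lipases, at 0.63 each. Hilpda had 90.15, 80.45, 187.82 and 227.47 FPKM, and Angptl4 had 11.47, 10.15, 26.76 and 32.39 FPKM. Nearest to Acot4 were Cxcl2, a chemokine, at 0.10, Prrg4 at 0.10 and Parp8 at 0.12. Pearson correlations of these 9 genes with their member were at least 0.91 over the 4 libraries. The genes were chosen by these same values, so high correlations follow from the choice. With 4 libraries these values are a description, and the pattern of Acot4 rests on 4 to 13 reads.

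**Figure D5:**
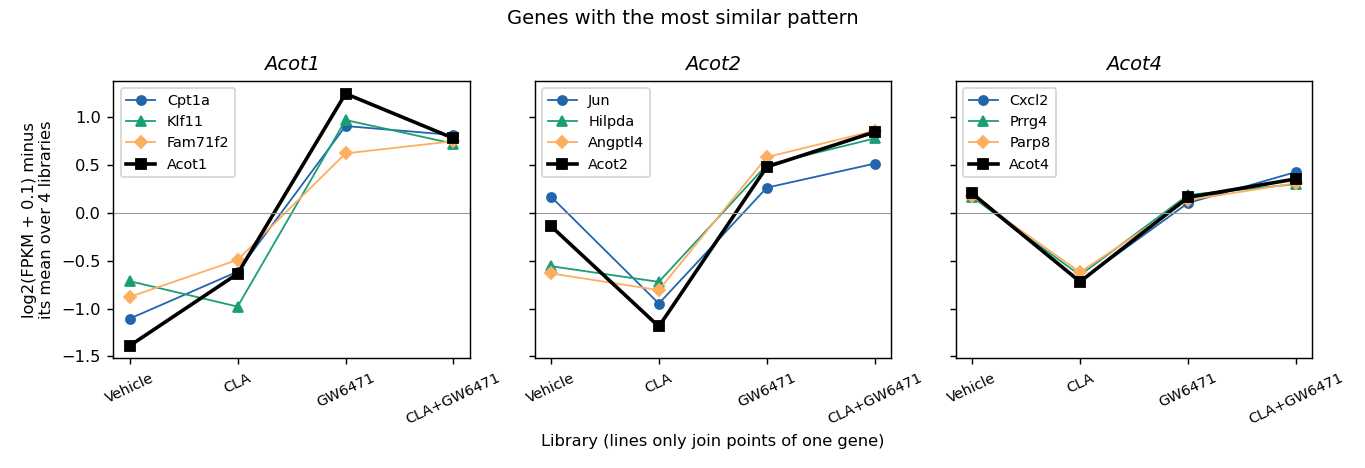
log2(FPKM + 0.1) of Acot1, Acot2 and Acot4 (black) and of the 3 genes nearest to each, centred on the mean of the 4 libraries. Acot1 and Cpt1a are high in both libraries with GW6471, and Acot2 and Acot4 are lowest in CLA.

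Genes around the thioesterase step were counted in lists written with results of these libraries known. Each count is read against the share of all listed genes past 1.5-fold, which was 8.86% higher and 6.65% lower in CLA against Vehicle, 5.2% and 4.83% in GW6471 against Vehicle, and 3.21% and 3.25% in CLA+GW6471 against Vehicle. It was 8.15% and 10.5% in CLA+GW6471 against CLA, and 5.42% and 5.74% against GW6471. Counts over genes averaging 1 FPKM or more are read against the share of those 10355 genes instead. That share was 7.3% and 4.95% in CLA, 3.28% and 2.1% in GW6471, and 0.512% and 0.628% in CLA+GW6471, each against Vehicle. For CLA+GW6471 it was 6.84% and 9.15% against CLA, and 2.81% and 3.88% against GW6471. Of 32 PPARα targets 28 were listed. In GW6471 against Vehicle 12 of them were higher and 1 lower by 1.5-fold, with a median log2 ratio of 0.44, and in CLA against Vehicle 6 were higher and 1 lower, with a median of 0.35. Over the 21 targets averaging 1 FPKM or more these counts were 8 higher and 1 lower (median 0.36) and 4 higher and 1 lower (0.36), so that part of them came from genes near 0. In CLA+GW6471 against Vehicle 7 were higher and 0 lower (median 0.16), against CLA 6 were higher and 5 lower (0.05), and against GW6471 1 was higher and 4 lower (-0.16). Over the 21 targets averaging 1 FPKM or more, these counts were 6 and 0, then 5 and 3, then 1 and 1. The targets with the largest range were Pdk4, a kinase that inhibits pyruvate dehydrogenase, with 1.17 FPKM in Vehicle and 1.87 in CLA, against 17.99 in GW6471 and 15.56 in CLA+GW6471, and Cpt1a. These 2 genes, like Acot1 and Acot2, were higher in both libraries labelled with GW6471, although it is an antagonist of PPARα. Other targets did not follow: for Acsl1 and Acaa1a, a peroxisomal thiolase, the log2 ratio of CLA+GW6471 to Vehicle was -0.04 and -0.23. Neither was past 1.5-fold. For Acaa1a the values were 10.7 FPKM in Vehicle and 15.78 in CLA, against 12.09 in GW6471 and 9.13 in CLA+GW6471, and this gene was picked after its values were seen. The labels were used as given, and whether the receptor was blocked in these livers was not tested.

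Acyl-CoA synthetases run the opposite reaction. Of their 24 genes 22 were listed, and 3 were higher and 1 lower in CLA against Vehicle (median log2 ratio 0.24), 5 higher and 2 lower in GW6471 against Vehicle (0.01), and 1 higher and 0 lower in CLA+GW6471 against Vehicle (0). Only 11 of the 22 averaged 1 FPKM or more, and these had 3 higher and 1 lower both in CLA (median 0.45) and in GW6471 (0.22) against Vehicle. Acsl1, the main long-chain synthetase of liver, had 34.92 FPKM in Vehicle and 74.1 in CLA, against 59.83 in GW6471 and 34 in CLA+GW6471. Acss2, which makes acetyl-CoA from acetate, had 2.38, 7.08, 5.64 and 2.45 FPKM. For both, Vehicle and CLA+GW6471 were the low libraries, whereas for Acot1 and Acot2 CLA+GW6471 was a high one. Against CLA, 1 synthetase was higher and 4 lower in CLA+GW6471 (-0.26), and against GW6471 2 were higher and 4 lower (0). Over the 11 averaging 1 FPKM or more, 1 was higher and 3 lower both against CLA (median -0.36) and against GW6471 (-0.31).

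Of 15 genes of coenzyme A synthesis and breakdown 14 were listed. In CLA against Vehicle 2 were higher and 0 lower, with a median of 0.28, and in CLA+GW6471 against CLA 0 were higher and 1 lower (-0.32), shares not far from those of all genes. Of the 2 higher genes, 1 averaged 1 FPKM or more. Relative to Vehicle, the median of the list was 0.18 in GW6471 and -0.06 in CLA+GW6471, and between these libraries (CLA+GW6471 to GW6471) it was -0.15. Nudt7, a peroxisomal enzyme that breaks down coenzyme A, had 1.17 FPKM in Vehicle and 2.77 in CLA, against 1.68 in GW6471 and 0.98 in CLA+GW6471. Pank3, a kinase of the first step of coenzyme A synthesis, had 22.93, 27.88, 32.73 and 22.07 FPKM. The 7 listed acyl-CoA binding proteins of 9 had 1 higher and 0 lower in CLA against Vehicle (median 0.34) and 0 higher and 1 lower in CLA+GW6471 against CLA (-0.24), again not far from all genes. In the other 3 comparisons 0 of the 7 were past 1.5-fold in either direction. Their genes with the largest range were Scp2, a peroxisomal lipid carrier (11.02, 17.81, 13.88 and 10.36 FPKM), and Dbi, the acyl-CoA binding protein itself (115.76, 171.02, 147.91 and 123.82 FPKM). Of 17 other thioesterases and acyl hydrolases 14 were listed, with 2 higher and 1 lower in CLA against Vehicle (median 0.06) and 0 higher and 2 lower in GW6471 against Vehicle (-0.04). In CLA+GW6471, 2 were higher and 1 lower against Vehicle (-0.01), 2 higher and 2 lower against CLA (-0.11), and 3 higher and 1 lower against GW6471 (0.15). Over the 10 of them averaging 1 FPKM or more, 1 was higher and 0 lower in CLA against Vehicle and 0 higher and 1 lower in GW6471 against Vehicle. In CLA+GW6471 these 10 had 0 higher in any of its comparisons, with 0 lower against Vehicle, 2 lower against CLA and 1 lower against GW6471. Fasn, fatty acid synthase, which ends in a thioesterase domain, had 32.01, 52.43, 40.69 and 27.07 FPKM, and Abhd10 had 7.28, 5.09, 4.35 and 6.18 FPKM.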

How the data were processed

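RNA from mouse liver was sequenced in 4 libraries, 1 for each condition named in the sample labels. TruSeq libraries were read on a HiSeq 2000. According to the methods and the submitters' processing notes, reads were mapped to mm9 with BWA and Bowtie and quantified with Cufflinks. Tool versions are not given in the sources used here. FPKM with 2 decimals were deposited by the authors for 15500 genes, and every column was used. Without counts in the table, a count model did not apply. Log2 ratios were computed from FPKM + 0.1, which draws the ratios of low genes toward 0, and a gene was called at 1.5-fold. Depth was estimated from short genes with 1 coding transcript under 1000 nt, as the step that best explains FPKM times length between 0.02 and 0.5. Of 603 such genes, 146 to 155 per library had a value in this range and entered the estimate of depth. The reads of a gene followed from this depth and its longest coding transcript in GENCODE vM1, so counting intervals are approximate. Between CLA and Vehicle, 65.6% of 9762 genes had a counting interval that left out equal levels. The share was 55.1% in GW6471 and 32.5% in CLA+GW6471, each against Vehicle. For CLA+GW6471 it was 68.9% against CLA and 59.4% against GW6471. Steps were run on simulated libraries with counting error only. There the intervals used the true depth, so intervals from an estimated depth were not checked. Coding sequences and gene positions came from GENCODE vM1 on mm9, and promoters from RefSeq. Calculations used Python 3.11.15, numpy 2.4.6, pandas 2.3.3, scipy 1.17.1, Biopython 1.88 and matplotlib 3.10.9. The members and lists were chosen with earlier results of these data known. The genes named by rule were every member, the 2 genes of each list with the largest range over the libraries (averaging 1 FPKM or more), and the 3 genes nearest to each member with a log2 range of at least 1. Outside this rule, Acaa1a, Acot6, Acot10, Them6, Them4 and Baat were picked after their values were seen. Marker genes and overlapping genes were also named outside it. Alternatives were a constant of 0.01 or 1, other scaling of the libraries, a limit of 1 on the mean FPKM, a call at 2-fold, and Acot1 and Acot2 summed.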

Additional observations from a re-analysis of the deposited data

Results flagged for a closer look

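Members are given here whose difference had opposite signs under the other treatment and reached 1.5-fold under at least 1 of the treatments. Over all listed genes, 14.6% met this for the CLA diet and 16% for GW6471. Each condition has 1 library, so the difference between the effects was not tested. The log2 ratio of the CLA diet was 0.75 without and -0.47 with GW6471 for Acot1, -1.05 and 0.36 for Acot2, and -0.92 and 0.19 for Acot4, the last from 4 to 13 reads. The log2 ratio of GW6471 was -0.04 on the linoleic acid diet and 1.07 on the CLA diet for Acot4, and -0.10 and 0.59 for Acot8.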

How the results depend on the processing

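No paired analysis was possible because the results come from no test and each condition has 1 library, so no replicate number could serve as a block. Differences within each diet and with or without GW6471 are given as values above. Of 160 log2 ratios of single members under another constant or scaling, 156 kept their call or their lack of a call, and 4 lost a call with a constant of 1. A common constant cannot reverse a ratio, and the scaling factors were 0.98 to 1.03. No called value could therefore change direction, and that none did is no check. The counts of called members that moved by over 1.5 times were these. In CLA against Vehicle, 1 higher became 0 with a constant of 1, with a call at 2-fold and with Acot1 and Acot2 summed, and 2 lower became 1 with a constant of 1, with a limit of 1 on the mean FPKM and with a call at 2-fold. Relative to Vehicle, 2 higher in GW6471 and 2 higher in CLA+GW6471 each became 1 with a call at 2-fold and with the pair summed. In CLA+GW6471 against CLA, 4 higher became 2 with a constant of 1, and 3 with the limit on the mean FPKM, with a call at 2-fold or with the pair summed, a smaller move. Without Acot1, Acot2 and Acot4 together, an alternative added after the data were seen, the calls were 0 higher and 0 lower in CLA against Vehicle, 0 higher in GW6471 and in CLA+GW6471 against Vehicle, and 1 higher, Acot8, in CLA+GW6471 against CLA. The median of the family in CLA+GW6471 against CLA, 0.34, was 0.17 with a constant of 1 and 0.09 with the limit on the mean FPKM or with the pair summed. Without Acot1, Acot2 and Acot4 it was -0.00, and in CLA+GW6471 against Vehicle the median went from 0.19 to 0.06. Depth limits Acot4, at 4 to 13 reads, and the lack of replicates limits every comparison.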

Other observations

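Other family genes outside the chosen names were low. Acot6, a peroxisomal type I gene at the end of the cluster, had 0.39 FPKM in Vehicle and 0.05 in CLA, against 0.03 in GW6471 and 0.22 in CLA+GW6471, and Acot10, the single-exon copy of Acot9, had 0.03, 0.12, 0.03 and 0.10 FPKM. Them6, a hotdog-fold relative, had 18.57, 26.13, 21.02 and 17.4 FPKM and was highest in CLA. Them4, a mitochondrial thioesterase, had 12.46, 9.69, 11.85 and 13.11 FPKM and was lowest there. Baat, which joins bile acids to amino acids and shares the type I fold, had 0.46, 0.31, 0.43 and 0.96 FPKM. These 5 genes were named after their values were seen, and no explanation was tested.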
